A study of Mus musculus with 4 samples.

Results

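The 9 genes described here are the lineage factors and standard markers by which a macrophage is recognised: *Spi1*, *Cebpa*, *Cebpb*, *Maf*, *Irf8*, *Csf1r*, *Adgre1*, *Cd68* and *Lyz2*. They were taken by gene name from the deposited table, 9 of its 34745 genes, and each name matched 1 row. RNA was sequenced from 4 libraries of mouse bone marrow-derived macrophages (BMDM), cells grown out of marrow progenitors. The 2 WT libraries came, per the study, from G3bp1 f/f mice, in which *G3bp1* is floxed, and the 2 KO libraries carry the genotype label G3bp1mac-/-, made by crossing those mice with the Lyz2-Cre strain, in which Cre is inserted at the *Lyz2* gene. Both groups thus share the floxed allele, and no treatment is named in the labels. Whether the controls carried Cre, the age of the floxed mice and how many were pooled per library were not given in the sources used here. Lyz2-Cre acts in monocytes and granulocytes as well as in macrophages, and one of the markers described below is the gene that drives it.

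PU.1, the product of *Spi1*, is the ETS-family factor that opens macrophage enhancers, and it works beside the C/EBP factors, of which C/EBPα (*Cebpa*) acts mainly in progenitors and C/EBPβ (*Cebpb*) in mature and activated cells. c-MAF (*Maf*) is a basic leucine zipper factor of differentiated macrophages, and IRF8 (*Irf8*) directs progenitors toward the monocyte and dendritic cell fates. *Csf1r* encodes the receptor for M-CSF, the growth factor on which these cells depend. *Adgre1* encodes the surface antigen F4/80, *Cd68* a lysosomal membrane glycoprotein, and *Lyz2* the lysozyme of myeloid cells.

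The sequence upstream of the start site is shown for both C/EBP genes, whose counts moved in opposite directions between libraries, and for *Lyz2* and its neighbouring copy *Lyz1*, which have to be told apart in the counts. Each window holds the 250 bases before a RefSeq start in GRCm38.p6, and 5 of the 9 genes had a window in the table used (*Cebpa*, *Cebpb*, *Irf8*, *Cd68* and *Lyz2*). Capitals mark matches, on either strand, to any of 6 short motifs: the PU.1 core GAGGAA, the extended ETS core GGAAGT, the C/EBP motif TTGCNNAA, the IRF repeat GAAANNGA, the TATA box TATAAA and the MAF core TGCTGA. The PU.1 and ETS cores can overlap each other, and no overlapping match occurred in the windows printed. The *Cebpa* window lies at chr7:35119043-35119292 on the plus strand, that of *Cebpb* at chr2:167688665-167688914 on the plus strand, that of *Lyz2* at chr10:117282273-117282522 on the minus strand and that of *Lyz1* at chr10:117292869-117293118 on the minus strand.
Cebpa: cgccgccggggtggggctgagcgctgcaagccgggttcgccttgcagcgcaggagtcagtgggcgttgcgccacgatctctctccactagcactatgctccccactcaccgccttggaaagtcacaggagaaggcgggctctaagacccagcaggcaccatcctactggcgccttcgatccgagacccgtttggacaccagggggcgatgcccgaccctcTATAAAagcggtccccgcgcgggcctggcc
Cebpb: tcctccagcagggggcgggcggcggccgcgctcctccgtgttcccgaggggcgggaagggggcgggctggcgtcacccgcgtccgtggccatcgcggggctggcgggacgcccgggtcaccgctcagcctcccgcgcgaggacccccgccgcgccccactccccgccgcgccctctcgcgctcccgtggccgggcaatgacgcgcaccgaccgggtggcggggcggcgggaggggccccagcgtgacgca
Lyz2: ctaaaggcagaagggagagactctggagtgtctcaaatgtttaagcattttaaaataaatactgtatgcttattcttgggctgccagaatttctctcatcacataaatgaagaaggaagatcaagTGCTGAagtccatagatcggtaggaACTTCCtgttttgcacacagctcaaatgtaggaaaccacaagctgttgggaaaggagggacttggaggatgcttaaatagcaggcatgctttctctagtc
Lyz1: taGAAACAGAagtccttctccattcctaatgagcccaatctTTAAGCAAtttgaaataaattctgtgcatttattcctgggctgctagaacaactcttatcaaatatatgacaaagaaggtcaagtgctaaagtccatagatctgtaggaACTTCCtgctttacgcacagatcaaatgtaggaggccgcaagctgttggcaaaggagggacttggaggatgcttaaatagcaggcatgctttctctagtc
The *Cebpa* window was 66.4% G and C, against a median of 52.4% over all 32851 windows, and its capitals are a TATA box that starts 30 bases before the start site. The *Cebpb* window was 81.6% G and C and held none of the 6 motifs. The *Lyz2* and *Lyz1* windows were 80.6% identical over 248 aligned bases, and the 50 bases directly before the start were the same in both. Both held the ETS core at position -100, counted back from the start site, the *Lyz2* window also held a MAF core, and the *Lyz1* window a C/EBP and an IRF match. The *Cd68* window held a PU.1 core at position -225 and a C/EBP match at position -43, and the first of 2 *Irf8* windows, at chr8:120736108-120736357, a TATA box and a pair of IRF repeats. The second *Irf8* window, at chr8:120738389-120738638, held an IRF repeat and a MAF core and no TATA box. Such matches were common: of all windows 23.3% held the PU.1 core, 19.7% the ETS core, 9.56% the C/EBP motif, 18.1% the IRF repeat, 12.4% the TATA box and 16.1% the MAF core.

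All 9 genes were detected in every library, each at 1 or more FPKM, the deposited level scaled to gene length and library size. Of a wider list of macrophage surface and granule markers, 41 of 45 genes reached 1 FPKM in every library. *Cd163*, *Cx3cr1*, *Timd4* and *Adgre4* did not. Among the lists of other cells described below, 6 of 19 monocyte and progenitor, 4 of 10 mast cell and basophil and 3 of 10 B cell genes did. So did 3 of 12 dendritic cell, 3 of 14 stromal, 2 of 13 neutrophil, 1 of 10 erythroid and megakaryocyte and 0 of 10 T and NK cell genes. How specific each list is to its cell type was not tested. Levels were compared between genes on 2 length-scaled measures, the deposited FPKM and the counts scaled to the library total and to the kilobases of annotated exons. The order was the same on both: *Lyz2*, *Cd68*, *Cebpb*, *Adgre1*, *Spi1*, *Csf1r*, *Cebpa*, *Irf8* and *Maf*. *Lyz2* stood at 15140 ± 1079 FPKM (SD over all 4 libraries) and *Cd68* at 1497 ± 59.2 FPKM, and neither range touched that of the next gene. *Cebpb* at 194 ± 91.8 FPKM, *Adgre1* at 152 ± 56.2, *Spi1* at 127 ± 50.2 and *Csf1r* at 83.7 ± 17.2 overlapped from each neighbour to the next over the 4 libraries, though *Cebpb* did not overlap *Csf1r*. Within each of the 4 libraries *Adgre1* lay above *Spi1* and *Spi1* above *Csf1r*, and *Cebpb* lay above *Adgre1* in 3 of 4. *Cebpa* at 25.0 ± 16.7 FPKM, *Irf8* at 9.63 ± 4.06 and *Maf* at 5.89 ± 1.39 were the lowest, and their neighbouring ranges overlapped too. The gap between *Cebpa* and its neighbours depended on the measure. Per kilobase of exons *Cebpa* reached 45.5 ± 30.3, overlapping *Csf1r* and not *Irf8*, whereas in FPKM it overlapped *Irf8* and not *Csf1r*. The length implied by the FPKM of *Cebpa* was 4787 bases, while its annotated exon covers 2636 bases.

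**Figure D1:**
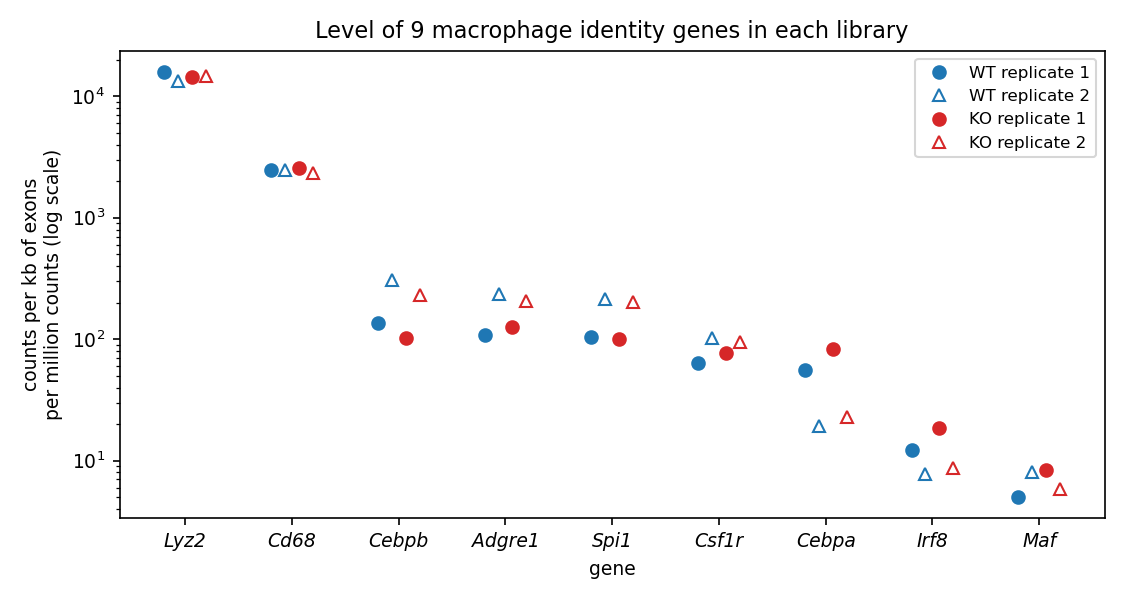
Level of each of the 9 genes in each library, as counts scaled to the library total and to kilobases of exons, on a log axis, with genotype shown by colour and replicate number by marker shape. *Lyz2* and *Cd68* lie above the other 7 genes in every library, while the ranges of neighbours from *Cebpb* through *Adgre1* and *Spi1* to *Csf1r* overlap.

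Among the transcription factors, *Spi1* (chromosome 2, 91082390 to 91115756, plus strand, GRCm38) gave 4764 and 9726 counts in WT replicates 1 and 2, and 4506 and 10839 in KO replicates 1 and 2. Scaled by library size and composition, these normalised counts were 294 and 610 CPM in WT and 242 and 551 CPM in KO. The replicate 2 library was the higher of its pair in both genotypes, and the genotypes overlapped. *Cebpb* (chromosome 2, 167688915 to 167690418, plus strand, a single exon) went the same way, with 216 and 487 CPM in WT and 139 and 351 CPM in KO. *Cebpa* (chromosome 7, 35119293 to 35121928, plus strand, a single exon) went the other way, with 154 and 54.1 CPM in WT and 198 and 60.9 CPM in KO. The progenitor C/EBP gene was therefore high in exactly the libraries in which the mature C/EBP gene was low.

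*Irf8* (chromosome 8, 120736358 to 120756694, plus strand) followed *Cebpa*, with 90.4 and 57.9 CPM in WT and 119 and 61.4 CPM in KO. *Maf* (chromosome 8, 115682942 to 115707794, minus strand) followed neither, with 43.7 and 71.0 CPM in WT and 61.6 and 48.7 CPM in KO. For *Maf* the higher library was replicate 2 in WT and replicate 1 in KO.

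The receptor gene *Csf1r* (chromosome 18, 61105572 to 61132149, plus strand) stood at 388 and 631 CPM in WT and 402 and 552 CPM in KO, again higher in the replicate 2 libraries. *Adgre1* (chromosome 17, 57358686 to 57483529, plus strand) showed the same order, with 364 and 816 CPM in WT and 368 and 677 CPM in KO. *Cd68* (chromosome 11, 69664213 to 69666153, minus strand) varied least between libraries, with 3279 and 3299 CPM in WT and 2888 and 2935 CPM in KO. *Cd68* was the only one of the 9 genes whose genotypes did not overlap. The separation rested on the scaling: as shares of all counts the 4 libraries held 0.313% and 0.311% in WT and 0.322% and 0.293% in KO, and these overlapped. *Lyz2* (chromosome 10, 117277334 to 117282274, minus strand) reached 21870 and 18677 CPM in WT and 16869 and 19496 CPM in KO. This one gene took 2.09% and 1.76% of the WT counts, replicate by replicate, and 1.88% and 1.94% of the KO counts, and the genotypes overlapped.

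Several members share bases with a gene on the other strand, and whether the authors' counting used strand is not stated in the sources used here. *Cebpb* shares 312 exonic bases with *Tmem189*, which gave 4299 and 2830 counts in the WT pair and 4619 and 3147 in the KO pair. *Tmem189* was thus higher in the replicate 1 libraries, in which *Cebpb* was lower. *Csf1r* shares its end with *Hmgxb3*, which gave 246 to 538 counts against 6297 to 10867 of *Csf1r*. An antisense gene of *Cebpa* gave 0 to 7 counts, and Gm15655, which overlaps *Maf*, gave 0 in every library. Gm20388, which overlaps *Irf8* on the same strand, also gave 0 in every library.

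The libraries that share a replicate number differed from those of the other number in most of these genes. *Spi1*, *Cebpb*, *Csf1r* and *Adgre1* were higher in both replicate 2 libraries than in both replicate 1 libraries, and *Cebpa* and *Irf8* were lower, an order that held under 3 scalings of the counts. That made 4 of 9 genes above, against 25.2% of the 12418 genes tested, and 2 of 9 below, against 23.2%. On the log2 scale, replicate 2 minus replicate 1 came to 1.06 in WT and 1.19 in KO for *Spi1*, and to 1.17 and 1.34 for *Cebpb*. For *Cebpa* the differences were -1.51 and -1.70, and for *Irf8* -0.64 and -0.95. *Adgre1* differed by 1.16 and 0.88, and *Csf1r* by 0.70 and 0.46. The shared direction in WT and in KO follows from the order by which these 6 genes were named, and is no further result. The median absolute difference between the numbers was 0.80 over the 9 genes and 0.29 over all genes tested. It exceeded 1 for 4 of the 9 genes, *Spi1*, *Cebpa*, *Cebpb* and *Adgre1*, and for 10.8% of all genes tested. No label says what a replicate number stands for, and the cause of these differences was not tested.

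**Figure D2:**
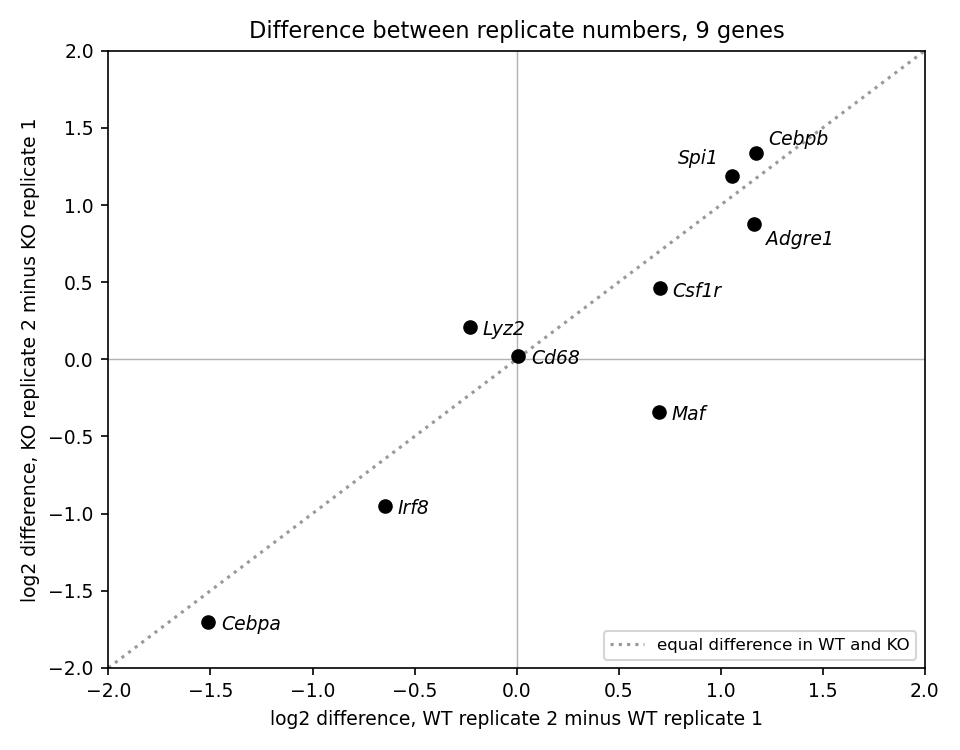
Difference between the library numbered 2 and that numbered 1 within each genotype, as log2 of normalised CPM, with WT on the horizontal and KO on the vertical axis, each point 1 gene and the dotted line an equal difference in both. *Cebpa* and *Irf8* lie below 0 in both genotypes, *Spi1*, *Cebpb*, *Csf1r* and *Adgre1* above 0 in both, and *Cd68* at 0.0091 and 0.023.

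The ratio of the C/EBP genes restates their opposite differences within each library, where library scaling cancels. It combines the counts already given and is not separate evidence. *Cebpa* counts per *Cebpb* count were 0.713 and 0.111 in the WT libraries numbered 1 and 2, and 1.43 and 0.174 in the KO libraries. Both replicate 1 libraries lay above both replicate 2 libraries, by 6.42-fold in WT and 8.22-fold in KO. Within each number the KO library held the higher ratio, by 2.0-fold for number 1 and 1.56-fold for number 2, but the genotypes overlapped. A two-sided exact permutation test of the log2 ratio by genotype gave p = 0.667, and with 2 libraries against 2 the smallest p it allows is 0.333. Ratios of 3 gene pairs were tested in all.

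To ask whether loss of *G3bp1* in macrophages moved their identity genes, the KO libraries were compared with the WT libraries by edgeR's quasi-likelihood test over all 12418 genes with enough counts, with p-values adjusted by Benjamini-Hochberg. Calls required an adjusted p under 0.05 and a change of over 2-fold. None of the 9 genes was called, and of all genes tested 0.0% were. None of the 9 had an unadjusted p under 0.05, against 823 genes or 6.63% of all tested. DESeq2 called none of the 9 and 1.46% of all genes, edgeR's exact test none of the 9 and 1.84%, and limma on log2(FPKM + 1) none of the 9 and 0.0%. Of the 9 fitted changes 7 were below 0 and 2 above, with a median of -0.16 on the log2 scale, beside a median of 0.04 over all genes tested. The KO libraries were both higher than either WT library for 0 of the 9 genes, against 20.0% of all tested, and both lower for 1, *Cd68*, against 16.9%. As bulk samples, the libraries cannot tell fewer cells of a type from less RNA per cell.

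The markers with steady levels gave the narrowest intervals. *Cd68* averaged 3289 ± 14.7 CPM (SD, n = 2) in the WT libraries and 2912 ± 33.4 CPM (SD, n = 2) in the KO libraries, a fitted log2 change of -0.18 (SE 0.18, 95% interval -0.62 to 0.27, edgeR adjusted p = 0.957). *Lyz2* averaged 20273 ± 2258 CPM against 18183 ± 1858 CPM, a log2 change of -0.16 (SE 0.17, interval -0.59 to 0.27, edgeR adjusted p = 0.962). For both lysosomal and secretory markers the interval thus left out a change of 2-fold in either direction. It did the same for *Csf1r*, at 510 ± 172 against 477 ± 106 CPM (log2 change -0.10, SE 0.33, interval -0.94 to 0.75, edgeR adjusted p = 0.988), and for *Maf*, at 57.3 ± 19.3 against 55.1 ± 9.11 CPM (-0.06, SE 0.32, interval -0.87 to 0.76, edgeR adjusted p = 0.990).

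For the other 5 genes the intervals were wider, and each took in a change of 2-fold in 1 direction or both. As for *Csf1r* and *Maf*, the SD within each genotype exceeded the difference between the genotype means. *Spi1* averaged 452 ± 224 CPM in WT against 396 ± 218 CPM in KO (log2 change -0.19, SE 0.53, interval -1.54 to 1.16, edgeR adjusted p = 0.982). *Adgre1* averaged 590.0 ± 319 against 522 ± 218 CPM (-0.18, SE 0.49, interval -1.43 to 1.07, edgeR adjusted p = 0.982). The largest fitted change was that of *Cebpb*, at 352 ± 191 against 245 ± 149.9 CPM (-0.52, SE 0.58, interval -2.01 to 0.96, edgeR adjusted p = 0.962). The remaining genes, *Cebpa* and *Irf8*, had fitted values above 0. *Cebpa* averaged 104 ± 70.8 against 129.6 ± 97.1 CPM (0.32, SE 0.72, interval -1.51 to 2.14, edgeR adjusted p = 0.981), and *Irf8* 74.1 ± 23.0 against 90.0 ± 40.4 CPM (0.28, SE 0.41, interval -0.77 to 1.33, edgeR adjusted p = 0.967). A change of 2-fold in these 5 genes was not resolved with 2 libraries per genotype.

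**Figure D3:**
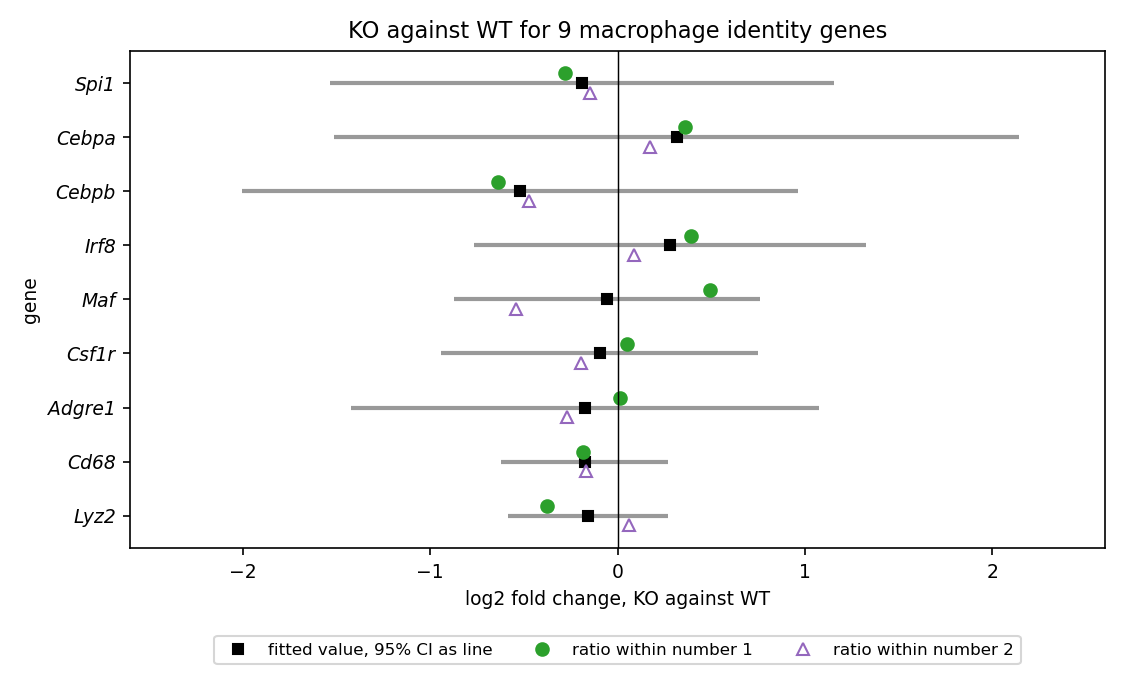
Fitted log2 fold change of KO against WT for each of the 9 genes (square) with its 95% confidence interval (line), and the log2 ratio within each replicate number (circle for number 1, triangle for number 2). Every interval includes 0, and those of *Cd68*, *Lyz2*, *Csf1r* and *Maf* lie within 1 of it.

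Leaving out 1 library turned the direction of 7 of the 9 fitted values. The replicate numbers are then no longer balanced between the genotypes, so the differences between numbers given above enter these fitted values. Without WT replicate 2 the log2 change became 0.40 for *Spi1*, 0.26 for *Csf1r*, 0.15 for *Cebpb*, 0.30 for *Maf*, 0.49 for *Adgre1*, -0.29 for *Cebpa* and -0.040 for *Irf8*. Without KO replicate 1 it became 0.29 for *Spi1*, 0.12 for *Csf1r*, 0.20 for *Adgre1*, -0.77 for *Cebpa* and -0.27 for *Irf8*, and without KO replicate 2 it became 0.095 for *Maf*. *Cd68* and *Lyz2* stayed below 0 whichever library was left out. Compared within each replicate number instead, 5 of the 9 genes had the same sign in both numbers, where 65.0% of all genes tested did. The count rested on the scaling, with 7 of 9 under DESeq2's size factors, where *Csf1r* and *Adgre1* had values below 0 in both, and 4 of 9 on library totals, where *Cd68* was split. *Cebpb* was lower in KO by both comparisons, with log2 ratios of -0.64 and -0.47, as were *Spi1* with -0.28 and -0.15 and *Cd68* with -0.18 and -0.17. *Cebpa* was higher in KO by both, with 0.36 and 0.17, as was *Irf8* with 0.39 and 0.086. *Maf* was split most widely, with 0.49 in number 1 and -0.54 in number 2. *Lyz2* was split the other way, with -0.37 and 0.062, and *Csf1r*, with 0.049 and -0.19, and *Adgre1*, with 0.015 and -0.27, lay near 0 in number 1.

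*Lyz2* has a near-identical neighbour on the same chromosome and strand, *Lyz1* (chromosome 10, 117287796 to 117292868), the lysozyme gene of Paneth cells in the gut. Their annotated transcripts were 96.0% identical over 1262 aligned bases, and 15.4% of all windows of 50 bases in the *Lyz2* transcript, but 1.97% of windows of 100 bases, occurred in that of *Lyz1*. Reads from *Lyz2* can thus be placed on *Lyz1*, and the counts of *Lyz1* are uncertain. *Lyz1* gave 1059 and 909 counts in the WT pair and 1172 and 1462 in the KO pair, against 354743, 297591, 314337 and 383749 counts of *Lyz2* in the same order. Of the counts on both genes, *Lyz1* took 0.298% (95% Clopper-Pearson interval 0.280 to 0.316) and 0.305% (0.285 to 0.325) in WT, and 0.371% (0.351 to 0.393) and 0.380% (0.360 to 0.399) in KO. The intervals cover counting error only, and those of the WT libraries did not touch those of the KO libraries. The ratio of *Lyz1* to *Lyz2* was 1.25-fold higher in KO, by 0.32 on the log2 scale within number 1 and 0.32 within number 2. The SD between libraries of a genotype was 0.023 in WT and 0.022 in KO. A two-sided exact permutation test gave p = 0.333, the smallest that 2 against 2 allows. Neither gene was called on its own, with *Lyz1* at a log2 change of 0.17 (SE 0.23, edgeR adjusted p = 0.965). In KO mice Cre sits in the *Lyz2* gene itself, and loss of *G3bp1* and the Cre insertion cannot be told apart here.

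**Figure D4:**
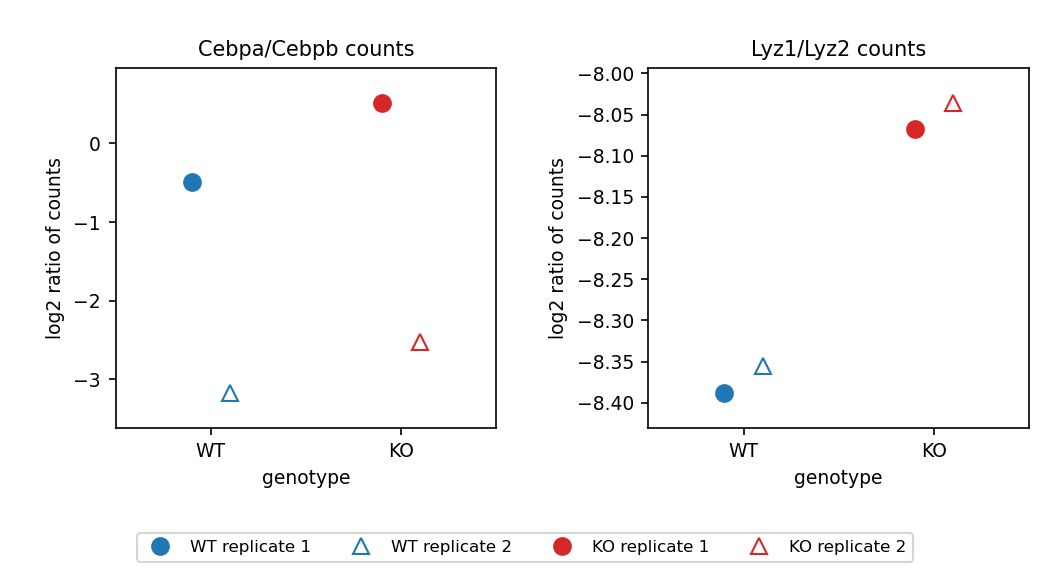
Log2 ratio of counts in each library for *Cebpa* to *Cebpb* and *Lyz1* to *Lyz2*, with each panel on its own vertical axis. *Cebpa* to *Cebpb* separates the replicate numbers, while *Lyz1* to *Lyz2* lies at -8.39 and -8.35 in WT and at -8.07 and -8.04 in KO.

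The targeted gene itself, *G3bp1*, gave 1691 and 2875 counts in the WT pair and 1307 and 2296 in the KO pair, a log2 change of -0.61 (SE 0.40, edgeR adjusted p = 0.904). It was lower in KO within number 1 (-0.57) and within number 2 (-0.63), but the genotypes overlapped, and counts per gene do not separate floxed exons from the rest. Libraries held 16724241 to 19747909 counts. Markers of other cell types were read from lists, and edgeR's quasi-likelihood test called none of them. Genes of stromal cells summed to 25.3 and 26.4 FPKM in WT and to 102 and 94.2 in KO, and 9 of the 12 tested had an unadjusted p under 0.05, beside 6.63% of all tested, with all 9 higher in KO. Those of mast cells and basophils summed to 93.5 and 79.5 FPKM in WT and 38.8 and 42.1 in KO, with *Mcpt8* at 0 counts everywhere, and 5 of the 6 tested had an unadjusted p under 0.05, all lower in KO. Erythroid and megakaryocyte genes summed to 166 and 109 FPKM in WT and 67.5 and 86.5 in KO, nearly all of it the platelet gene *Pf4* with 158 and 103 FPKM in WT and 65.8 and 84.4 in KO, and 3 of the 4 tested had an unadjusted p under 0.05, all lower in KO. Neutrophil genes, with 2 of 8 tested under that p and both lower, summed to 37.6 and 43.8 against 16.3 and 23.5 FPKM. B cell genes summed to 29.3 and 33.0 FPKM in WT and 29.5 and 24.8 in KO, mostly *Blnk*, and 5 of the 5 tested, beside 16.9% of all tested, were lower in both KO libraries than in either WT library, 2 of them with an unadjusted p under 0.05. The sums of T and NK cell genes were 1.00 to 1.78 FPKM, with none at 1 FPKM in every library. Dendritic cell genes summed to 134 and 154 FPKM in WT and 197 and 189 in KO, nearly all of it *Itgax* and *Cd24a*, which are not specific to these cells, while *Flt3*, *Xcr1*, *Clec9a* and *Siglech* gave 0 to 10 counts. Monocyte and progenitor genes, the population in which *Cebpa* and *Irf8* are active, summed to 259 and 244 FPKM in WT and 204 and 232 in KO, mostly *Cd48*, with *Mpo*, *Elane* and *Ms4a3* at 0. Of the 14 tested, 5 had an unadjusted p under 0.05, 2 of them higher in KO (*Fn1* and *Cd34*) and 3 lower (*Chil3*, *Ly6c2* and *Plac8*). The 9 identity genes summed to 18418 and 16206 FPKM in WT and 16846 and 17469.0 in KO, most of it *Lyz2*. The part of these other cells in the values above was not tested.

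The other genes of the same programme were read from lists. Of 51 other macrophage transcription factors 47 were tested, and edgeR's quasi-likelihood test called 0, while DESeq2 and edgeR's exact test, which called 1.46% and 1.84% of all genes, each called 2. The KO libraries were both higher than either WT library for 7 of the 47 (14.9%, beside 20.0% of all tested) and both lower for 2 (4.26%, beside 16.9%), with a median log2 change of 0.07. Those named by size were *Irf4* and *Batf3* on the lower side and *Gata6* and *Id3* on the higher. *Irf4*, a factor of alternatively activated macrophages and close relative of *Irf8*, gave 178 and 183 counts in the WT pair and 80 and 54 in the KO pair (log2 change -1.67, SE 0.34, edgeR adjusted p = 0.289). *Gata6*, the factor of peritoneal macrophages, gave 38 and 29 counts in the WT pair and 181 and 123 in the KO pair (1.93, SE 0.38, edgeR adjusted p = 0.286). Those were the 2 genes that DESeq2 and the exact test called, and the 2 in the list with an unadjusted p under 0.05. *Batf3*, a dendritic cell factor that partners IRF8, had a log2 change of -0.75 and *Id3* one of 0.62. By replicate number, 20 of the 47 (42.6%, beside 25.2% of all tested) were higher in both replicate 2 libraries and 12 (25.5%, beside 23.2%) lower.

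Of a list around *Csf1r*, with its ligands, signalling genes and related cytokine receptors, 45 of 45 genes were tested and 0 called, and none had an unadjusted p under 0.05. DESeq2 and the exact test called none either. Their median log2 change was 0.05, with 6 genes (13.3%) higher in both KO libraries and 2 (4.44%) lower, beside 20.0% and 16.9% of all tested. *Csf1*, which encodes the ligand M-CSF, gave 74 and 175 counts in the WT pair and 211 and 296 in the KO pair (log2 change 0.76, edgeR adjusted p = 0.904). *Il34*, the other ligand of the receptor, gave 7 and 4 counts in the WT pair and 16 and 14 in the KO pair. The adaptor *Dok2* gave 1112 and 1251 counts against 927 and 1022 (-0.53, edgeR adjusted p = 0.792), and the kinase *Mapk3* had a log2 change of -0.09. As with *Csf1r* itself, more of this list was higher in both replicate 2 libraries, 22 of 45 genes (48.9%, beside 25.2% of all tested), than lower, 5 genes (11.1%, beside 23.2%).

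Beside *Adgre1*, *Cd68* and *Lyz2*, 44 of 45 other surface and granule markers were tested and 0 called, by DESeq2 and the exact test as well. With the replicate number added as a block, 2 were called, *Lst1* and *C5ar1*, though the labels do not say that the numbers pair the libraries. The median log2 change of the 44 was -0.15, close to that of the 9 identity genes. Of them, 8 genes (18.2%, beside 20.0% of all tested) were higher in both KO libraries and 11 (25.0%, beside 16.9%) lower. An unadjusted p under 0.05 was reached by 3 higher in KO (*Itgam*, *Cx3cr1* and *Cd5l*) and 3 lower (*Lst1*, *Aif1* and *Clec7a*), 6 of 44 where 6.63% of all tested did so. *Cd5l*, which encodes a secreted scavenger protein of tissue macrophages, gave 980 and 916 counts in the WT pair and 1946 and 2117 in the KO pair (log2 change 0.85, SE 0.22, edgeR adjusted p = 0.391). The chemokine receptor gene *Cx3cr1* was low, with 11 and 7 counts in the WT pair and 25 and 27 in the KO pair (1.27). *Lst1* gave 332 and 259 counts in the WT pair and 147 and 200 in the KO pair (-1.02, edgeR adjusted p = 0.451). *Aif1*, which encodes the marker IBA1, gave 92 and 108 against 55 and 70 counts (-0.93). *Itgam*, which encodes CD11b, is named by 2 gene identifiers in the table: one gave 2936 and 1973 counts in the WT pair and 5784 and 4477 in the KO pair, the other 1756 and 4161 in WT and 980 and 2325 in KO. Their summed level was 289 and 385 CPM in WT and 363 and 346 CPM in KO, and the genotypes then overlapped.

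**Figure D5:**
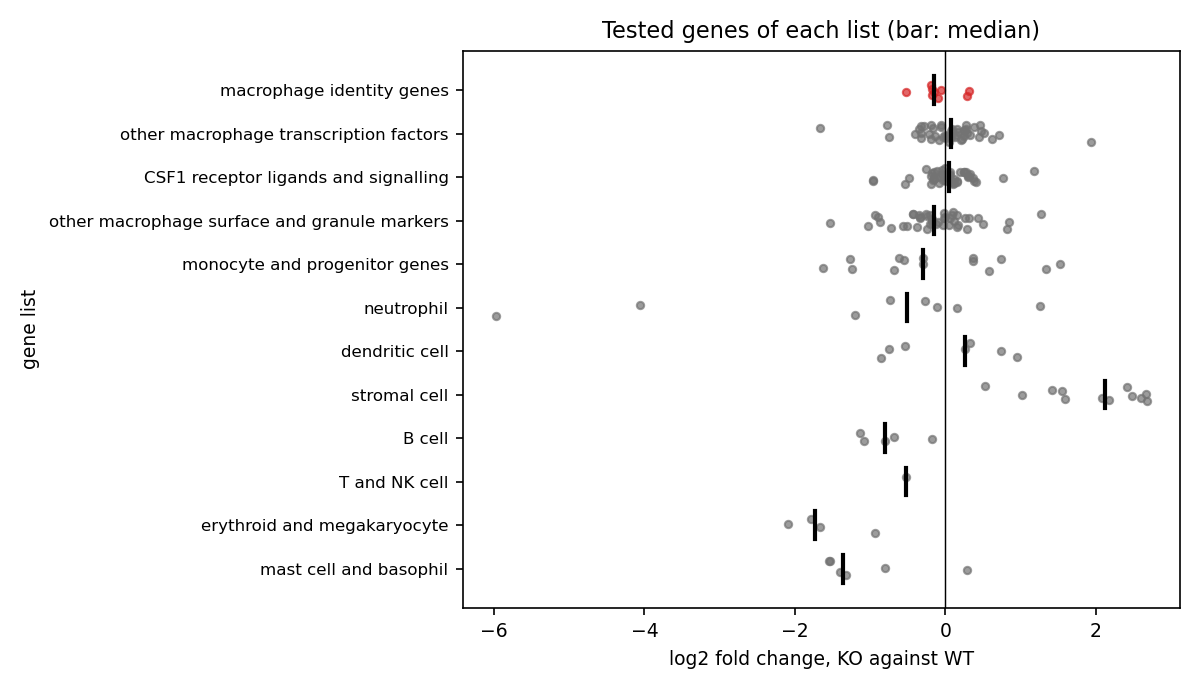
Log2 fold change of KO against WT for the tested genes of each list, each point 1 gene and the line the list's median, with the macrophage identity genes beside markers of other cells. The medians of the identity genes (-0.16), other transcription factors (0.07), signalling genes (0.05) and other markers (-0.15) lie near 0, that of stromal genes at 2.12, and those of erythroid and megakaryocyte (-1.73), mast cell and basophil (-1.36) and B cell genes (-0.80) below 0.

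The genes whose levels ran most like those of 3 members were named by the root mean square difference of their log2 CPM, each centred over the 4 libraries, among 8091 genes of at least 10 CPM. For *Spi1* these were *Eif4e* (0.032), *Skil* (0.036) and *Slc30a6* (0.040). For *Csf1r* they were *Rmdn3* (0.015), *AU019823* (0.025) and *Usp16* (0.026), and for *Lyz2* *Tpd52* (0.011), *Nt5m* (0.013) and *Zfand6* (0.013). With 4 libraries, such closeness is a description of these libraries alone.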

How the data were processed

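RNA from 4 BMDM libraries (VAHTS Universal V6 kit) was processed by the authors. They aligned reads with HISAT2 2.0.4, assembled and counted genes with StringTie 1.3.3b, and deposited counts and FPKM per gene. The submitters' notes name mm39, but of 34267 gene identifiers found in GENCODE M21 (GRCm38) 27699 have the deposited start and end, so positions are given in GRCm38. The deposited FPKM divide by a length longer than the annotated exons for 77.6% of 9563 genes with several transcripts.

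Counts were tested in R 4.3.3 with edgeR 4.0.16 (quasi-likelihood, TMM scaling with factors of 0.942 to 1.12, genotype alone, filter of 10 counts and 15 in total), as in the study's q and fold thresholds, here adjusted p under 0.05 and 2-fold. The study reports differentially expressed genes at these thresholds and does not name which edgeR test it used. Here the quasi-likelihood test called 0 of 12418 genes and edgeR's exact test 229. Libraries held 16724241 to 19747909 counts, and the spread between libraries limits the precision of each fold change. Ratios within a number added 0.5 counts, and motifs and GC came from RefSeq windows. Alternatives used limma 3.58.1 on log2(FPKM + 1), DESeq2 1.42.0, other filters, a length correction, a replicate block and single libraries left out.

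Named genes were the 9 members, *G3bp1*, *Lyz1*, overlapping genes, the 2 largest changes each way per list of programme genes among those whose genotypes did not overlap, and the 3 most alike genes. *Clec7a*, *Itgam*, *C5ar1*, *Cd163*, *Timd4*, *Adgre4* and the markers of other cell types were named after their values were seen. Results for some genes are not reported here. Members and lists were chosen with earlier results of these data known. Nothing says that libraries came from separate mice, so p-values measure the spread between these samples only.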

Additional observations from a re-analysis of the deposited data

How the results depend on the processing

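Apart from leaving out libraries, 10 alternatives gave 90 values for the 9 genes, of which 85 kept the sign and stayed uncalled. The 5 that reversed were, with limma on log2(FPKM + 1), *Csf1r* (0.080), *Maf* (0.11) and *Adgre1* (0.025), and *Lyz2* with the gene length trend removed (0.12) and with that and the replicate block together (0.12). The cause was not tested. The smallest adjusted p of a member under any alternative was 0.135, for *Cebpb* with the replicate block. With library totals as scaling, added after seeing the data, *Cd68* within number 1 became 0.041.

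Leaving out a library leaves 1 in its group, which is then assumed to vary like the other group. Leaving out each in turn gave log2 changes of -0.91 to 0.40 for *Spi1*, -0.40 to 0.26 for *Csf1r*, -0.77 to 1.26 for *Cebpa*, -1.35 to 0.15 for *Cebpb*, -0.36 to 0.30 for *Maf*, -0.27 to 0.67 for *Irf8*, -0.69 to 0.49 for *Adgre1*, -0.21 to -0.16 for *Cd68* and -0.30 to -0.038 for *Lyz2*. Calls over all genes ranged from 0 to 1, with 1 when either WT library was left out.

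The labels share replicate numbers but do not say that they pair the libraries. Same-numbered deviations correlated at 0.692 over the genes tested, with 2 pairs. With the number as a block, 664 genes were called (494 higher in KO, 170 lower) and 401 with the length trend also removed, against 0 without it, 181 by DESeq2 and 229 by edgeR's exact test. None was one of the 9 genes. Of the other transcription factors, *Irf4* and *Gata6* were called, 2 genes each with the block, with the block and length trend removed, by DESeq2 and by the exact test. Of the other markers, 2 were called with the block, *Lst1* and *C5ar1*, and 0 with the length trend also removed. *C5ar1* gave 1106 and 1799 counts in the WT pair and 194 and 1753 in the KO pair, so its lower level lay mostly in KO replicate 1. *G3bp1* had an adjusted p of 0.0853 with the block and 0.0263 with the length trend also removed.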
